A study of Mus musculus with 24 samples.

Results

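The response of the retina to oxygen-induced retinopathy was described in mice lacking gasdermin D (GSDMD), using 6 whole-retina RNA-seq libraries of the 24 libraries in the series. All 6 came from homozygous GSDMD-KO mice on a C57/B6 background, in which a short deletion within an exon of Gsdmd had been made by CRISPR. The gene lies on chromosome 15 at 75862327 to 75867408 of GRCm38. The members were chosen by their labels. They were 3 KO-O2 retinas (GSD306, GSD308 and GSD310), from pups kept in 75% oxygen from postnatal day 7 to day 12 and then returned to room air (RA), and 3 KO-RA retinas (GSD301, GSD302 and GSD304), from pups kept in room air throughout. All retinas were taken on day 18. The knockout is constitutive, so every cell of both KO groups carries it, and each library was labelled as 1 animal. The WT retinas from littermates, 3 WT-RA and 3 WT-O2, were raised under the same schedules and were used for the spread between animals and for 1 comparison. The question was which retinal genes differ, 6 days after the end of high oxygen, when GSDMD is absent.

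Gasdermin D is the protein that forms pores in the cell membrane once inflammatory caspases have cleaved it, which releases interleukins and can end in pyroptotic cell death. In the mouse retinopathy model, high oxygen makes growing retinal capillaries regress. On return to room air the central retina is short of oxygen, hypoxia-inducible factors (HIF) switch on angiogenic genes such as Vegfa, and new vessels grow, partly as abnormal tufts. Müller glia and microglia are known to react in the same period. The tissue was whole retina, so a lower level from fewer cells of a type and one from less RNA per cell cannot be told apart.

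Each library held between 24863257 and 29093035 estimated counts (27501705 to 28742551 in the 6 KO retinas), and 19173 of the 36595 genes listed passed the filter on low counts. Levels are given below as CPM, each library's counts scaled to a common total with TMM normalization factors, in the order GSD301, GSD302, GSD304 for KO-RA and GSD306, GSD308, GSD310 for KO-O2. A gene is said to have risen or fallen where edgeR's quasi-likelihood test gave a Benjamini-Hochberg adjusted p under 0.1 over all tested genes, and it is called where the unadjusted p was also under 0.05 and the change at least 2-fold. The libraries were retina by their markers: Sag, the arrestin of rods, was at 4918, 4648 and 4467 CPM in KO-RA and 5019, 4476 and 5041 CPM in KO-O2 retinas. Gsdmd itself was at 0.98, 0.774 and 0.636 CPM in the KO-RA and 1.11, 1.44 and 2.95 CPM in the KO-O2 retinas. In WT mice it was at 4.08, 0.419 and 2.7 CPM under room air and 5.7, 2.9 and 3.85 CPM after oxygen. The deleted part is small, the transcript can still be counted, and 1 WT-RA retina was below every KO retina, so these counts do not check the genotype. Between KO-O2 and KO-RA the level of Gsdmd did not pass the test (adjusted p = 0.333).

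Another tissue was present in some libraries. Lens genes took 8.147% of the counts of KO-RA mouse GSD304, against at most 0.07315% in the other 5 KO retinas. The WT-RA mice GSD382 and GSD383 held 4.784% and 12.81%. Among the crystallins, Cryaa was at 12.7, 0.673 and 8315 CPM in the KO-RA retinas and 0.451, 0.889 and 117 CPM in the KO-O2 retinas, and Crygd at 7.17, 1.11 and 11883 CPM in KO-RA and 0.416, 0.615 and 28.5 CPM in KO-O2. Of the other lens genes, Lim2 was at 0, 0.168 and 323 CPM in KO-RA and 0, 0 and 1.97 CPM in KO-O2. None of 16 crystallins and 14 other lens genes passed the test, and they are set apart from what follows. Genes of the pigment epithelium, the layer behind the photoreceptors, were also highest in GSD304: their summed level was 3273 CPM there, 464.8 and 571.1 CPM in the other KO-RA retinas and 186.5 to 390.0 CPM in KO-O2. Y-linked genes, which mark males, were present in all 3 KO-RA retinas (summed level 133.7 to 159.9 CPM) and in 1 of 3 KO-O2 retinas (GSD308, 108.0 CPM), the other KO-O2 retinas being at 2.325 and 2.239 CPM. Sex therefore overlapped with oxygen exposure. The main changes of a list's count without 1 animal are given beside the list, and the counts with the Y-linked level in the model after the lists.

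In oxygen-exposed GSDMD-KO retinas more genes were higher than lower. Of 19173 genes tested, 420 were called (2.19%). In KO-O2 retinas 314 of them were higher (1.64%) and 106 were lower (0.553%). Without the fold threshold 840 genes rose (4.38%) and 660 fell (3.44%), and the median log2 fold change of all tested genes was 0.00. KO-O2 and KO-RA retinas were fully apart, without overlap, in 26.2% of tested genes. Of the 420 called genes 418 were fully apart. Where groups are said below to be apart for genes that passed, this describes their values and adds no support. The count rests on single animals: 224 genes were called without GSD301, 269 without GSD304 and 151 without GSD308. At the adjusted p alone, 1.65% of all genes rose and 1.15% fell without GSD301, 2.62% and 2.06% without GSD302, 2.07% and 1.65% without GSD304, 4.68% and 3.98% without GSD306, 1.21% and 0.66% without GSD308, and 2.5% and 1.77% without GSD310. The counts of the lists below in such fits are to be read against these shares. There were 222 genes called both with and without GSD304, and 112 (0.584%; 91 higher and 21 lower) called in the full set and in each of the 6 fits that left out 1 KO retina. With the Y-linked level in the model 339 genes were called, of which 227 were among the 420.

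The largest rises, among genes called also without GSD304, included genes known from growing vessels, from hypoxia and from immune cells. Edn2, described below, did not pass in that fit and was left out here. Esm1, a proteoglycan secreted by endothelial tip cells, was at 0, 0.0673 and 0.119 CPM in KO-RA and 3.75, 3.15 and 1.08 CPM in KO-O2. No KO-RA library had more than 3 counts of it. Against that floor of 3 counts per library Esm1 was at least 24.8-fold higher in KO-O2 retinas (adjusted p = 0.00732). Epo, which encodes erythropoietin, was at 0.203, 0.437 and 0.119 CPM in KO-RA and 4.72, 5.64 and 3.63 CPM in KO-O2, with every KO-O2 retina far above the KO-RA retinas (log2 fold change 4.16, SE 0.44, adjusted p = 0.00216). The KO-RA values of Epo rest on few counts, so the size of its fold is uncertain. Ndufa4l2, a mitochondrial protein induced by hypoxia and a marker of pericytes, was at 9.8, 10.3 and 19.9 CPM in KO-RA and 204, 289 and 208 CPM in KO-O2 (log2 fold change 4.13, SE 0.49, adjusted p = 0.00381). The lens-bearing retina GSD304 had the highest KO-RA value of Ndufa4l2, still well under the lowest KO-O2 value. Adm, the vasodilator peptide adrenomedullin, was at 1.59, 2.52 and 1.79 CPM in KO-RA and 21.1, 17.5 and 11.9 CPM in KO-O2 (log2 fold change 3.09, SE 0.25, adjusted p = 0.000351). Apln, the ligand of the apelin receptor and a tip cell gene, was at 4.73, 5.52 and 5.05 CPM in KO-RA and 49, 36.7 and 34.1 CPM in KO-O2 (log2 fold change 2.97, SE 0.28, adjusted p = 0.00115). In both, the KO-O2 retinas were several times above every KO-RA retina. H2-Ab1, a chain of the class II antigen-presenting molecule, was at 0.71, 1.45 and 1.35 CPM in KO-RA and 9.09, 12.5 and 8.48 CPM in KO-O2 (log2 fold change 3.10, SE 0.26, adjusted p = 0.000536). The remaining large rises were those of Prnd (log2 fold change 3.03, adjusted p = 0.00442), Gipr, the receptor of an incretin hormone (log2 fold change 2.95, adjusted p = 0.00396), Lad1, a basement membrane protein (log2 fold change 3.55, adjusted p = 0.0262), Tnnt2, cardiac troponin T (log2 fold change 2.94, adjusted p = 0.0189), and Ifi27l2a, an interferon-induced gene (log2 fold change 3.06, adjusted p = 0.0751). Of these, Ifi27l2a did not pass the test without GSD301, GSD302, GSD308 or GSD310, each left out alone. With 1 KO retina left out the log2 fold change ran from 2.47 to 4.59 for Ifi27l2a, from 2.84 to 3.93 for Lad1 and from 3.85 to 4.80 for Epo.

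The mitochondrial gene mt-Nd3 was also among the 12 largest rises, at 162, 653 and 567 CPM in KO-RA and 4745, 5467 and 5525 CPM in KO-O2 (log2 fold change 3.51, SE 0.40, adjusted p = 0.00356), but this value is uncertain. The gene model Gm28438, chosen after its values were seen, moved the other way, at 2658, 4923 and 5039.6 CPM in KO-RA and 0, 0 and 0.136 CPM in KO-O2. The sum of both was 2819, 5576 and 5606 CPM in KO-RA and 4745, 5467 and 5525 CPM in KO-O2, so that the groups overlapped. How reads were shared between these 2 models was not tested.

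**Figure D1:**
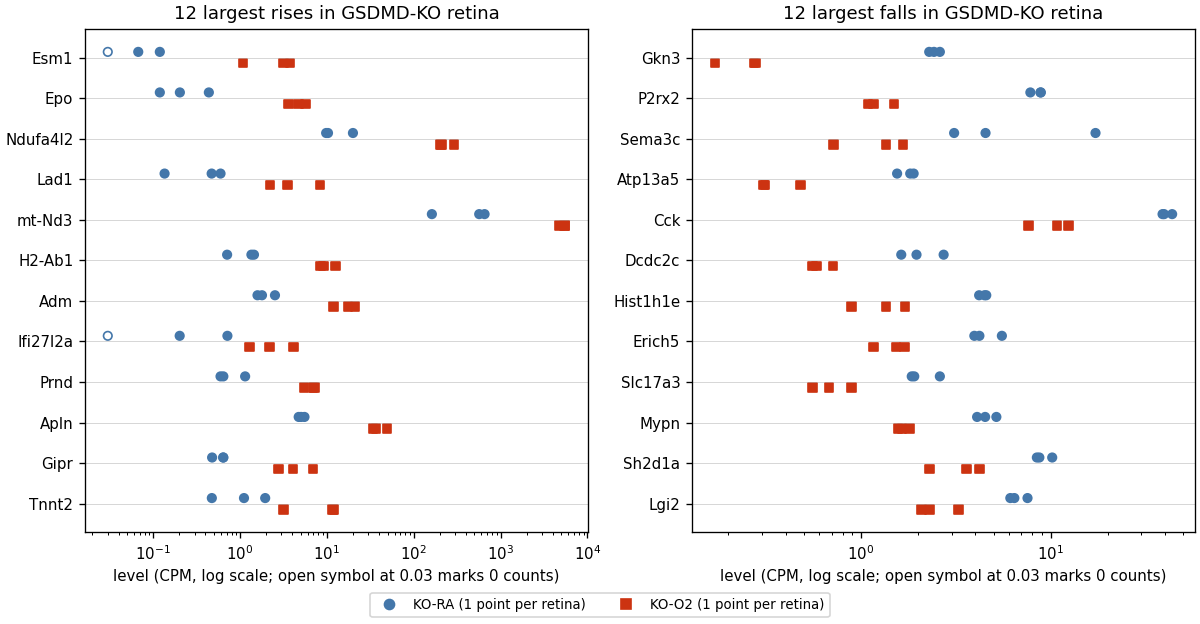
Level in CPM (log scale) of the 12 genes with the largest rises and the 12 with the largest falls in GSDMD-KO retina among genes called also without GSD304. There is 1 point per retina, for 3 KO-RA and 3 KO-O2 retinas. KO-RA and KO-O2 points of a gene do not overlap, a condition for naming it; Ndufa4l2 runs from 9.80 to 19.9 CPM in KO-RA and from 204 to 289 CPM in KO-O2.

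The largest falls, again among genes called also without GSD304, were in genes of several kinds. Gkn3, gastrokine 3, was at 2.6, 2.29 and 2.42 CPM in KO-RA and 0.278, 0.274 and 0.17 CPM in KO-O2 (log2 fold change -3.32, SE 0.42, adjusted p = 0.00381). P2rx2, an ion channel opened by ATP, was at 8.82, 7.8 and 8.86 CPM in KO-RA and 1.49, 1.16 and 1.08 CPM in KO-O2 (log2 fold change -2.76, SE 0.21, adjusted p = 0.000351). Cck, the neuropeptide cholecystokinin, was at 38.8, 39.5 and 43.6 CPM in KO-RA and 12.4, 7.62 and 10.8 CPM in KO-O2 (log2 fold change -1.98, SE 0.27, adjusted p = 0.00436). For all 3 genes the KO-RA retinas lay close together and well above the KO-O2 retinas. Hist1h1e, a linker histone, was at 4.19, 4.47 and 4.57 CPM in KO-RA and 1.7, 0.889 and 1.36 CPM in KO-O2 (log2 fold change -1.74, SE 0.23, adjusted p = 0.00425). Sema3c, a guidance cue, was at 4.53, 3.09 and 17.2 CPM in KO-RA and 1.35, 0.718 and 1.66 CPM in KO-O2 (log2 fold change -2.73, SE 0.59, adjusted p = 0.0313). The lens-bearing retina was the highest of the KO-RA retinas, and without GSD304 its log2 fold change was -1.61 (adjusted p = 0.0798); without GSD308 it did not pass. The other named falls were Atp13a5 (log2 fold change -2.25, adjusted p = 0.0147), Dcdc2c (log2 fold change -1.76, adjusted p = 0.0562), Erich5 (log2 fold change -1.64, adjusted p = 0.0152), Slc17a3 (log2 fold change -1.58, adjusted p = 0.0447), Mypn (log2 fold change -1.46, adjusted p = 0.0056), Sh2d1a (log2 fold change -1.44, adjusted p = 0.0189) and Lgi2 (log2 fold change -1.40, adjusted p = 0.011). Dcdc2c passed in 1 and Slc17a3 in 3 of the 6 fits that left out a KO retina, and neither passed without GSD301, GSD308 or GSD310.

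Genes of endothelial tip cells and new vessels were mostly higher in KO-O2 retinas. Of 22 members tested, 18 rose and none fell, 14 were called, and the median log2 fold change was 1.29, against 0.00 over all genes and a background of 4.38% of genes that rose. Besides Esm1, Apln and Adm, Mcam, an endothelial and pericyte adhesion molecule, was at 6.56, 7.74 and 8.58 CPM in KO-RA and 38.2, 39 and 28.1 CPM in KO-O2 (log2 fold change 2.20, SE 0.23, adjusted p = 0.00216). Igfbp3, a binding protein of insulin-like growth factors, was at 4.87, 9.82 and 9.3 CPM in KO-RA and 35.2, 45.2 and 44.2 CPM in KO-O2 (log2 fold change 2.38, SE 0.35, adjusted p = 0.00732). Pdgfb, the factor by which endothelium recruits pericytes, was at 4.39, 5.38 and 3.77 CPM in KO-RA and 12.8, 12.2 and 10.5 CPM in KO-O2 (log2 fold change 1.38, SE 0.21, adjusted p = 0.00819). All 3 genes were higher in each KO-O2 retina than in any KO-RA retina. Angpt2, which destabilises vessels, was at 3.48, 3.6 and 4.01 CPM in KO-RA and 13.6, 10.8 and 5.73 CPM in KO-O2 (log2 fold change 1.44, SE 0.29, adjusted p = 0.0242), and Cxcr4, a chemokine receptor of tip cells, at 2.7, 3.03 and 2.3 CPM in KO-RA and 12.7, 6.12 and 7.53 CPM in KO-O2 (log2 fold change 1.71, SE 0.35, adjusted p = 0.0246). Cd34 (log2 fold change 1.11, adjusted p = 0.00663), Trp53i11 (log2 fold change 1.05, adjusted p = 0.0097) and Plvap, a protein of fenestrated endothelium (log2 fold change 1.03, adjusted p = 0.0164), rose by smaller amounts. The basement membrane collagens Col4a1 (log2 fold change 1.59, adjusted p = 0.035) and Col4a2 (log2 fold change 1.28, adjusted p = 0.044) and the channel subunit Kcne3 (log2 fold change 4.31, adjusted p = 0.0392) also rose, but the collagens did not pass without GSD301, GSD304 or GSD308, and Kcne3 did not pass without GSD308. Kcne3 was at 0.169, 0 and 0 CPM in KO-RA and 1.42, 1.71 and 0.577 CPM in KO-O2, so that its fold rests on few KO-RA counts, and its log2 fold change ran from 3.75 to 8.10 with 1 KO retina left out. The list gave 12 rises without GSD308 and 14 without GSD304.

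Of 21 general endothelial markers tested, 12 rose (4.38% of all genes) and none fell, 4 were called, and the median log2 fold change was 0.72. Vwf, the clotting factor carrier made by endothelium, was at 6.73, 4.84 and 5.68 CPM in KO-RA and 13.1, 19.4 and 16.8 CPM in KO-O2 (log2 fold change 1.51, SE 0.21, adjusted p = 0.00504). Clec14a was at 1.69, 2.08 and 2.15 CPM in KO-RA and 5.83, 5.81 and 5.05 CPM in KO-O2 (log2 fold change 1.49, SE 0.26, adjusted p = 0.0129). In neither gene did the groups overlap. Eng, a co-receptor of the TGF-beta family (log2 fold change 1.11, adjusted p = 0.0149), Egfl7, a secreted factor of endothelium (log2 fold change 1.11, adjusted p = 0.0234), the transcription factor Erg (log2 fold change 0.99, adjusted p = 0.00843) and the orphan receptor Tie1 (log2 fold change 0.91, adjusted p = 0.0106) also rose. Egfl7 did not pass without GSD308. The list gave 8 rises without any 1 of GSD301, GSD304 and GSD308.

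In the list of pericyte and mural cell genes 7 of 17 rose, against 4.38% of all genes, and none fell, with a median log2 fold change of 0.64. These counts cover list members only. Gkn3 and Atp13a5, among the largest falls above, were on none of the vascular lists. Beside Ndufa4l2, Higd1b was at 3.58, 3.5 and 3.77 CPM in KO-RA and 11.8, 7.38 and 6.31 CPM in KO-O2 (log2 fold change 1.23, SE 0.21, adjusted p = 0.0144), and Myl9, a myosin light chain of smooth muscle, at 12.2, 17.1 and 15.3 CPM in KO-RA and 43.2, 31.1 and 23.2 CPM in KO-O2 (log2 fold change 1.13, SE 0.24, adjusted p = 0.0303). Pdgfrb, the pericyte receptor for platelet-derived growth factor, was at 7.64, 7.57 and 7.27 CPM in KO-RA and 11, 13.9 and 11.1 CPM in KO-O2 (log2 fold change 0.68, SE 0.16, adjusted p = 0.0392). KO-O2 retinas were above KO-RA retinas in all 3 genes. Abcc9, a potassium channel subunit, also rose (log2 fold change 0.62, adjusted p = 0.0392). Without GSD301 the list had 2 rises, and without GSD304 or GSD308 it had 3. Myl9 did not pass without GSD301, and Pdgfrb and Abcc9 did not pass without GSD301, GSD304 or GSD308.

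Within the VEGF and angiopoietin system 3 of 15 genes rose, against 4.38% of all genes, and none fell. This number did not change when any 1 KO retina was left out. The 3 genes were a growth factor, a Tie2 ligand and a receptor: Vegfa, Angpt2 and Tie1. Vegfa was at 183, 259 and 222 CPM in KO-RA and 477, 451 and 397 CPM in KO-O2 (log2 fold change 1.00, SE 0.13, adjusted p = 0.00381), just short of 2-fold. Each KO-O2 value was above each KO-RA value. Among the endothelins and their receptors, Edn1 was at 3.52, 2.86 and 3.65 CPM in KO-RA and 6.59, 6.94 and 6.21 CPM in KO-O2 (log2 fold change 0.98, SE 0.23, adjusted p = 0.0407), and the receptor Ednra at 2.13, 2.35 and 2.23 CPM in KO-RA and 6.45, 5.78 and 4.21 CPM in KO-O2 (log2 fold change 1.29, SE 0.27, adjusted p = 0.0282). Neither passed without GSD301 or GSD308, and Edn1 also not without GSD302. Of 13 vascular guidance genes 3 rose and 2 fell, against 4.38% and 3.44% of all genes. The rises were the semaphorin receptor Plxnd1 (log2 fold change 1.24, adjusted p = 0.00447), Robo4 (log2 fold change 0.86, adjusted p = 0.0441) and the netrin receptor Unc5b (log2 fold change 0.82, adjusted p = 0.078). The falls were Sema3c and Sema3e, the ligand of Plxnd1 (log2 fold change -0.71, adjusted p = 0.0408). Of these 5 genes, Plxnd1 alone passed in all 6 fits that left out a KO retina. Of 17 genes of norrin signaling and the blood-retina barrier 2 rose, against 4.38% of all genes, the tight junction protein Cldn5 (log2 fold change 0.64, adjusted p = 0.0504) and the amino acid transporter Slc7a5 (log2 fold change 0.69, adjusted p = 0.0447), and neither passed without GSD301, GSD304 or GSD308.

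Of 32 members of the HIF target list 8 rose and none fell, 3 were called, against 4.38% of all genes that rose and 1.64% called higher, and the median log2 fold change was 0.16. Stc2, stanniocalcin 2, was at 2.43, 2.76 and 2.03 CPM in KO-RA and 6.8, 7.96 and 7.87 CPM in KO-O2 (log2 fold change 1.65, SE 0.20, adjusted p = 0.00381). Egln3, the oxygen-sensing prolyl hydroxylase PHD3, was at 3.55, 2.89 and 2.58 CPM in KO-RA and 8.26, 12.3 and 7.26 CPM in KO-O2 (log2 fold change 1.62, SE 0.22, adjusted p = 0.0049). For both genes the lowest KO-O2 value was more than 2-fold above the median KO-RA value. Adm and Vegfa, above, belong to the same list, as do Ero1l, an oxidase of the endoplasmic reticulum (log2 fold change 0.53, adjusted p = 0.0436), and the transcription factor Bhlhe40 (log2 fold change 0.42, adjusted p = 0.0635). Bnip3 (log2 fold change 0.58, adjusted p = 0.0706) and Kdm3a (log2 fold change 0.41, adjusted p = 0.0628) completed the 8 and were named after their values were seen, as were the following. The glucose transporter Slc2a1 (log2 fold change 0.12, adjusted p = 0.514), the kinase Pgk1 (log2 fold change 0.06, adjusted p = 0.868) and lactate dehydrogenase Ldha (log2 fold change 0.13, adjusted p = 0.683) did not pass the test. Slc2a1 was at 237, 206 and 245 CPM in KO-RA and 238, 254 and 256 CPM in KO-O2, where the groups overlapped. Without GSD304 there were 4 rises and without GSD308 there were 5, and Ero1l and Bhlhe40 were lost in both.

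The stretches of 250 bases before the RefSeq start site (GRCm38.p6) are shown for the HIF list members with the 4 lowest p values and for Epo, since these genes moved together. Capitals mark the core letters of the HIF binding element, searched as ACGTG and GCGTG on both strands, so that CACGT and CACGC are matches too. A match is a description and not a binding site. Of the 168 genes named, 122 had a promoter entry.
Adm, chr7:110627407-110627656, plus strand: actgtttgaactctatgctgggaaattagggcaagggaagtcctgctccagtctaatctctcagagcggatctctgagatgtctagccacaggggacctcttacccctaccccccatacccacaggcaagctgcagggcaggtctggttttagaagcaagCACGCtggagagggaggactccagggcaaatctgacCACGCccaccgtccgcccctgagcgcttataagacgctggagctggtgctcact
Stc2, chr11:31370062-31370311, minus strand: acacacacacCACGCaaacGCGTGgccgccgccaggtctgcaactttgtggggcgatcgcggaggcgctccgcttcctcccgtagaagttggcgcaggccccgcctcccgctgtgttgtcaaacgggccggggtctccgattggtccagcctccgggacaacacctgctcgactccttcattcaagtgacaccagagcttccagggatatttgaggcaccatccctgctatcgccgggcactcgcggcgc
Egln3, chr12:54203875-54204124, minus strand: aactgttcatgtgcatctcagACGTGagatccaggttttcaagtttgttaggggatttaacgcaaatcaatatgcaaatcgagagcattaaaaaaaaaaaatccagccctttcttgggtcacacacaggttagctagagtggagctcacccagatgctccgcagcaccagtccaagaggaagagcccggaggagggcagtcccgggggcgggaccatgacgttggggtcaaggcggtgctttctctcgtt
Vegfa, chr17:46032378-46032627, minus strand: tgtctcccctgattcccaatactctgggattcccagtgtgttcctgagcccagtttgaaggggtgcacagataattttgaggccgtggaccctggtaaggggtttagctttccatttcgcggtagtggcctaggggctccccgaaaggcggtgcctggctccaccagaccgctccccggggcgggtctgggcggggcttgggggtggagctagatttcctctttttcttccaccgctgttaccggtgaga
Epo, chr5:137485817-137486066, minus strand: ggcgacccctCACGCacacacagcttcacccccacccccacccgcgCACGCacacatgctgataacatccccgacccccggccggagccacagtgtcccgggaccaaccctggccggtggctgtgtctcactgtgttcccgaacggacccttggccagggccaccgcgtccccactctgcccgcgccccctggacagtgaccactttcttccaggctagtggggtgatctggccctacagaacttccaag
Adm, Stc2 and Epo each had 2 matches, all to GCGTG or its reverse. Egln3 had 1 match, to ACGTG, and Vegfa had none of these letters in the window of its most upstream start. One or the other motif was present in 38.6% of all 32851 windows of this length, and in 5 of the 6 HIF list members that rose and had an entry. The members came from a list of HIF targets and had 1 window per gene, the most upstream. The 2 shares are therefore not alike, and an excess of motifs was not tested.

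Genes of reactive gliosis and STAT3 signaling were higher in KO-O2 retinas, with wide spread among the KO-O2 animals. Of 28 members 15 rose (4.38% of all genes) and none fell, 11 were called (1.64%), and the median log2 fold change was 1.03. Edn2, endothelin 2, which stressed photoreceptors release, was at 0.135, 0.504 and 0.238 CPM in KO-RA and 11.3, 26.4 and 3.15 CPM in KO-O2 (log2 fold change 5.51, SE 1.24, adjusted p = 0.0441). The KO-RA values of Edn2 rest on few counts, so the size of its fold is uncertain. Gfap, the filament protein of reactive glia, was at 8.62, 12.8 and 9.73 CPM in KO-RA and 40.1, 67.7 and 23.9 CPM in KO-O2 (log2 fold change 2.08, SE 0.52, adjusted p = 0.0574). Serpina3n was at 1.01, 3.33 and 2.42 CPM in KO-RA and 21, 48.4 and 5.63 CPM in KO-O2 (log2 fold change 3.47, SE 0.98, adjusted p = 0.0868). Serpina3n passed without GSD310 but in no other fit that left out a KO retina. Over the 6 fits the log2 fold change ran from 4.59 to 6.18 for Edn2 and from 2.56 to 3.94 for Serpina3n. In all 3 genes GSD308 was the highest and GSD310 the lowest KO-O2 retina. GSD308 was the 1 KO-O2 retina with Y-linked transcripts, which every KO-RA retina had too. The part of sex in these levels was not tested. Fgf2, a growth factor that protects photoreceptors, was at 8.35, 7.7 and 8.06 CPM in KO-RA and 28.4, 43.4 and 20.6 CPM in KO-O2 (log2 fold change 1.94, SE 0.31, adjusted p = 0.0101), and Lcn2, lipocalin 2, at 5.1, 9.18 and 6.12 CPM in KO-RA and 27.3, 33.2 and 20.1 CPM in KO-O2 (log2 fold change 1.98, SE 0.37, adjusted p = 0.018). These last 2 passed in all 6 fits that left out a KO retina. The transcription factor Stat3 was at 34.1, 34.2 and 31.9 CPM in KO-RA and 60.1, 79.4 and 50.8 CPM in KO-O2 (log2 fold change 0.93, SE 0.24, adjusted p = 0.0595). Cebpd (log2 fold change 1.35, adjusted p = 0.0495), Bcl3 (log2 fold change 2.42, adjusted p = 0.051), C4b (log2 fold change 2.32, adjusted p = 0.0657), Timp1 (log2 fold change 1.82, adjusted p = 0.0491), Nes (log2 fold change 1.05, adjusted p = 0.0389), S1pr3 (log2 fold change 0.80, adjusted p = 0.045) and the metallothionein Mt1 (log2 fold change 1.23, adjusted p = 0.0725) also rose. The list gave 3 rises without GSD301 or GSD302, 6 without GSD304 and 2 without GSD308. Edn2, Gfap, Bcl3, C4b, Cebpd and Stat3 did not pass without any 1 of GSD301, GSD302, GSD304 and GSD308, and Nes passed in 4, Timp1 and S1pr3 in 3 and Mt1 in 1 of the 6 fits.

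Most microglial genes were higher in KO-O2 retinas. Of 21 tested, 14 rose (4.38% of all genes) and none fell, 10 were called, the median log2 fold change was 1.03, and all 21 had a positive log2 fold change. The 3 chains of complement C1q, which microglia make, were among them. C1qa was at 8.69, 7.23 and 6.87 CPM in KO-RA and 22.9, 25.7 and 19.2 CPM in KO-O2 (log2 fold change 1.57, SE 0.22, adjusted p = 0.00492). C1qc was at 7.91, 9.89 and 10.2 CPM in KO-RA and 24.5, 31 and 23.5 CPM in KO-O2 (log2 fold change 1.495, SE 0.23, adjusted p = 0.00777), and C1qb followed (log2 fold change 1.49, adjusted p = 0.015). Cd68, a lysosomal protein of phagocytes, was at 3.99, 3.97 and 4.29 CPM in KO-RA and 8.92, 17.6 and 10.7 CPM in KO-O2 (log2 fold change 1.60, SE 0.25, adjusted p = 0.00843), and the adaptor Tyrobp at 4.06, 4.71 and 6 CPM in KO-RA and 17.6, 13.1 and 13.7 CPM in KO-O2 (log2 fold change 1.59, SE 0.32, adjusted p = 0.0225). Each KO-O2 retina was above each KO-RA retina in these genes, and all 5 passed in each of the 6 fits that left out a KO retina. Cx3cr1, the fractalkine receptor (log2 fold change 1.03, adjusted p = 0.0152), Trem2 (log2 fold change 1.72, adjusted p = 0.04), Fcgr3 (log2 fold change 1.28, adjusted p = 0.0697), Fcrls (log2 fold change 1.498, adjusted p = 0.0811) and Gpr34 (log2 fold change 1.26, adjusted p = 0.0712) were the other called members. Of these, Cx3cr1 passed in all 6 fits, Trem2 in 3, and Fcgr3, Fcrls and Gpr34 in 1 each. Without GSD301 or GSD308 the list gave 6 rises, without GSD304 it gave 8, and without GSD302 or GSD306 it gave 9. The summed level of the list was 124.9 to 143.8 CPM in KO-RA and 223.8 to 297.0 CPM in KO-O2.

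The shares over all genes were 4.38% that rose and 1.64% called higher. Of the genes of activated microglia 4 of 19 rose: the receptor kinase Axl (log2 fold change 1.07, adjusted p = 0.00945), the tetraspanin Cd9 (log2 fold change 0.60, adjusted p = 0.0535), the chemokine Ccl2 (log2 fold change 3.06, adjusted p = 0.0743) and Cst7. The list had 1 rise without any 1 of GSD301, GSD302 and GSD308. Cst7, cystatin F, was at 0, 0 and 0.0795 CPM in KO-RA and 0.833, 0.752 and 0.373 CPM in KO-O2, higher by at least 6.09-fold against a floor of 3 counts per library (adjusted p = 0.0797). Axl alone of the 4 passed in all 6 fits that left out a KO retina. In the complement list 6 of 18 genes rose and none fell, the C1q chains, C4b, the C3a receptor C3ar1 (log2 fold change 1.97, adjusted p = 0.0434) and the inhibitor Serping1 (log2 fold change 1.71, adjusted p = 0.0392). Without GSD301 or GSD308, 3 of them rose, and C3ar1 and Serping1 did not. In the interferon list 5 of 28 rose and none fell, all called: the class I antigen-presenting molecule H2-K1 (log2 fold change 1.62, adjusted p = 0.0122), the transcription factor Irf7 (log2 fold change 1.58, adjusted p = 0.0152), Ifitm3 (log2 fold change 1.39, adjusted p = 0.0315), Oasl2 (log2 fold change 1.08, adjusted p = 0.0335) and the peptide transporter Tap1 (log2 fold change 1.21, adjusted p = 0.0645). H2-K1 was at 13.8, 15.2 and 8.9 CPM in KO-RA and 31.9, 53.8 and 31.3 CPM in KO-O2, and Irf7 at 14.6, 11.8 and 10.4 CPM in KO-RA and 34.2, 49.5 and 26.7 CPM in KO-O2. These 2 genes passed in all 6 fits that left out a KO retina, Ifitm3 and Oasl2 in 4 and Tap1 in 2, and the list gave 2 rises without GSD301 or GSD308.

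Of 15 inflammasome and pyroptosis genes tested 3 rose, against 4.38% of all genes, and none fell, with a median log2 fold change of 0.48. The initiator caspase Casp8 was at 1.28, 1.01 and 1.31 CPM in KO-RA and 2.88, 2.26 and 2.68 CPM in KO-O2 (log2 fold change 1.11, SE 0.26, adjusted p = 0.0427). Ninj1, the protein that ruptures the membrane of dying cells, was at 12, 14.2 and 15.8 CPM in KO-RA and 19.4, 32.7 and 19.5 CPM in KO-O2 (log2 fold change 0.77, SE 0.19, adjusted p = 0.0476), and Txnip, an inhibitor of thioredoxin, at 8.65, 12.8 and 12.6 CPM in KO-RA and 13.9, 33.7 and 20.9 CPM in KO-O2 (log2 fold change 1.01, SE 0.29, adjusted p = 0.0811). None of the 3 passed without GSD301, GSD302 or GSD308. Nlrc3, an inhibitory member of the NLR family, was at 1.96, 2.49 and 1.87 CPM in KO-RA and 3.26, 2.84 and 3.05 CPM in KO-O2 and did not pass (adjusted p = 0.257). Birc3, an inhibitor of apoptosis proteins, was at 1.55, 1.85 and 1.27 CPM in KO-RA and 2.12, 1.64 and 1.56 CPM in KO-O2 with overlapping groups (adjusted p = 0.784), and Birc5, survivin, at 1.01, 1.58 and 1.59 CPM in KO-RA and 3.61, 1.95 and 1.59 CPM in KO-O2 (adjusted p = 0.31).

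Among 27 genes of apoptosis, necroptosis and p53 signaling 9 rose and 1 fell, against 4.38% and 3.44% of all genes. Bbc3, the p53 target Puma, was at 9.67, 11.6 and 9.77 CPM in KO-RA and 17.7, 29.7 and 18.7 CPM in KO-O2 (log2 fold change 1.09, SE 0.22, adjusted p = 0.0229). Gadd45a was at 43, 50.9 and 61.2 CPM in KO-RA and 81.6, 95.2 and 82.4 CPM in KO-O2 (log2 fold change 0.74, SE 0.13, adjusted p = 0.0147), and Trp53 at 20.7, 22.6 and 20.7 CPM in KO-RA and 29, 34.5 and 30.1 CPM in KO-O2 (log2 fold change 0.55, SE 0.10, adjusted p = 0.0147). These 3 genes were higher in each KO-O2 retina and passed in all 6 fits that left out a KO retina. Gadd45b (log2 fold change 1.75, adjusted p = 0.0507), Bcl2l11 (log2 fold change 0.71, adjusted p = 0.0342) and Mlkl, the effector of necroptosis (log2 fold change 2.31, adjusted p = 0.0623), rose without passing in all 6. Ccng1, another p53 target, fell (log2 fold change -0.72, adjusted p = 0.0196). The list gave 4 rises without GSD301, 5 without GSD302 and 3 without GSD308. In the TNF and NF-kB list 3 of 22 genes rose, Ccl2, Bcl3 and the receptor Tnfrsf1a (log2 fold change 1.02, adjusted p = 0.0963), and none of them without GSD301 or GSD308. The inhibitor Tnfaip3 fell, being at 126, 118 and 122 CPM in KO-RA and 77, 71.1 and 91.8 CPM in KO-O2 (log2 fold change -0.61, SE 0.10, adjusted p = 0.0114).

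Many matrix genes rose. Of 34 members 15 rose and 1 fell (4.38% and 3.44% of all genes), 9 were called higher, and the median log2 fold change was 0.71. Fn1, fibronectin, was at 27.7, 38 and 31.9 CPM in KO-RA and 81.3, 131 and 86.4 CPM in KO-O2 (log2 fold change 1.61, SE 0.22, adjusted p = 0.00492). The laminin chain Lama4 was at 3.48, 3.73 and 3.93 CPM in KO-RA and 11.6, 11.1 and 10.4 CPM in KO-O2 (log2 fold change 1.57, SE 0.21, adjusted p = 0.00492), and Col15a1 at 1.72, 2.02 and 1.19 CPM in KO-RA and 4.75, 6.29 and 6.28 CPM in KO-O2 (log2 fold change 1.81, SE 0.30, adjusted p = 0.0111). In these 3 genes KO-O2 retinas were more than 2-fold above KO-RA retinas. Lamb1 (log2 fold change 0.88, adjusted p = 0.0136), Mmp14 (log2 fold change 0.74, adjusted p = 0.0225), Bgn (log2 fold change 2.08, adjusted p = 0.0412), Ccn1 (log2 fold change 1.34, adjusted p = 0.0754) and Ccn2 (log2 fold change 1.17, adjusted p = 0.0392) also rose. Col8a1 fell (log2 fold change -2.04, adjusted p = 0.0922), but its KO-RA values were 9.87, 8.98 and 41.5 CPM, with the lens-bearing retina highest. Without GSD304 it did not pass (adjusted p = 0.256). It passed in 1 of the 6 fits that left out a KO retina, with log2 fold changes from -2.40 to -0.95. The list gave 8 rises without GSD301, 9 without GSD304 and 4 without GSD308. Ccn1 passed in none of the 6 fits that left out a KO retina, Bgn in 3, Ccn2 in 4 and Mmp14 in 5. In the TGF-beta and BMP list 5 of 25 genes rose, among them the ligand Tgfb1 (log2 fold change 0.93, adjusted p = 0.0506), the receptors Eng and Tgfbr2 (log2 fold change 0.69, adjusted p = 0.0889) and the target Tgfbi (log2 fold change 1.42, adjusted p = 0.0347), and 1 without GSD301 or GSD308. Tgfbi passed in 4, Tgfb1 in 2 and Tgfbr2 in 1 of the 6 fits.

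Immediate early genes are those that neurons and glia switch on within minutes of a stimulus. Of 17 members 7 rose and none fell, against 4.38% of all genes that rose, and 6 were called. Egr1 was at 17.9, 9.35 and 9.97 CPM in KO-RA and 44.8, 142 and 77.1 CPM in KO-O2 (log2 fold change 2.83, SE 0.47, adjusted p = 0.0144). Nr4a1 was at 27.3, 28.1 and 19.6 CPM in KO-RA and 49, 87.3 and 65.2 CPM in KO-O2 (log2 fold change 1.42, SE 0.23, adjusted p = 0.00909), and Egr3 at 0.541, 0.774 and 0.397 CPM in KO-RA and 1.49, 3.76 and 2.68 CPM in KO-O2 (log2 fold change 2.20, SE 0.40, adjusted p = 0.0152). GSD308 was the highest and GSD306 the lowest KO-O2 retina for all 3. Fos (log2 fold change 1.35, adjusted p = 0.0311), Junb (log2 fold change 1.25, adjusted p = 0.0378) and Fosb (log2 fold change 1.22, adjusted p = 0.0648) were called too, and passed in 4, 3 and 2 of the 6 fits. The list gave 3 rises without GSD304 or GSD308 and 4 without GSD302. Of 31 cell cycle genes 4 rose, Mki67, the proliferation marker (log2 fold change 2.62, adjusted p = 0.0639), Bub1b (log2 fold change 1.07, adjusted p = 0.0457), Foxm1 (log2 fold change 1.10, adjusted p = 0.0696) and Ube2c (log2 fold change 0.67, adjusted p = 0.0986), and none of the 31 without GSD301, GSD304 or GSD308.

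**Figure D2:**
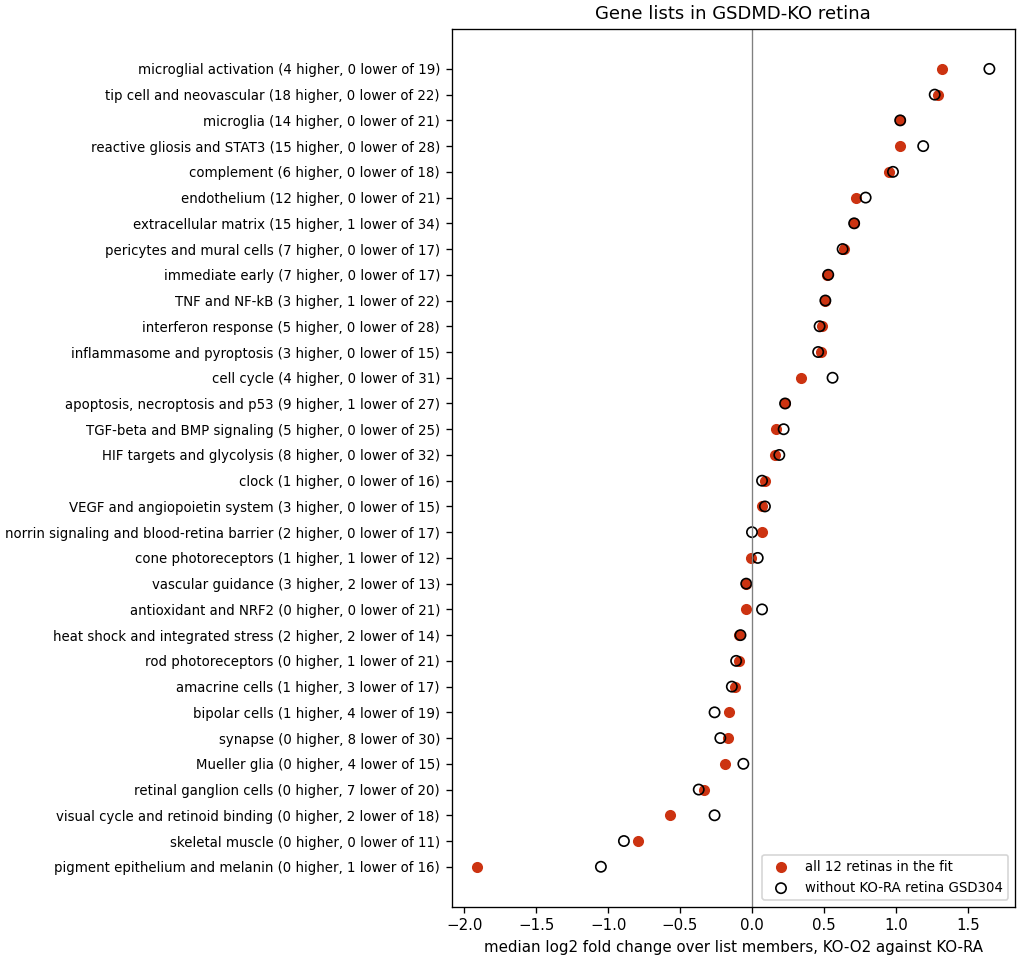
Median log2 fold change over the tested members of each gene list with at least 10 tested members, KO-O2 against KO-RA, with all 12 retinas in the model (filled) and without the lens-bearing KO-RA retina GSD304 (open). Tip cell, microglial and gliosis lists have medians above 1 in both fits, and the ganglion cell list is below 0 in both (-0.33 and -0.37).

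Several genes of inner retinal neurons were lower. Of 20 ganglion cell genes 7 fell and none rose, against a background of 3.44% of genes that fell, with a median log2 fold change of -0.33. The neurofilament Nefh was at 90.2, 77.5 and 82.5 CPM in KO-RA and 50.7, 43.5 and 48.9 CPM in KO-O2 (log2 fold change -0.81, SE 0.11, adjusted p = 0.00447). Nefm was at 106, 81.1 and 79 CPM in KO-RA and 53.8, 49.8 and 61.5 CPM in KO-O2 (log2 fold change -0.69, SE 0.13, adjusted p = 0.0193), and Nefl at 348, 264 and 281 CPM in KO-RA and 196, 176 and 195 CPM in KO-O2 (log2 fold change -0.66, SE 0.14, adjusted p = 0.0318). The nicotinic receptor subunit Chrna6 was at 84, 66.2 and 73.6 CPM in KO-RA and 43.8, 43.6 and 44.2 CPM in KO-O2 (log2 fold change -0.77, SE 0.14, adjusted p = 0.0186), and the transcription factor Pou4f3 at 8.55, 5.38 and 6.04 CPM in KO-RA and 3.05, 2.67 and 3.36 CPM in KO-O2 (log2 fold change -1.14, SE 0.23, adjusted p = 0.0234). The groups did not overlap for any of these 5 genes, which were chosen by their low p (26.2% of all genes did not). Nefl did not pass without GSD301 or GSD308, and Pou4f3 did not without GSD308. Without GSD304 the list again had 7 falls, without GSD301 it had 4 and without GSD308 it had 3. With the Y-linked level in the model it had 4.

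Among 19 bipolar cell genes 4 fell and 1 rose, against 3.44% and 4.38% of all genes. Tacr3, the neurokinin 3 receptor of some bipolar cells, was at 20.6, 15.8 and 16.4 CPM in KO-RA and 7.57, 7.45 and 7.5 CPM in KO-O2 (log2 fold change -1.23, SE 0.15, adjusted p = 0.00381). Grik1, a kainate receptor subunit (log2 fold change -0.49, adjusted p = 0.0223), Scgn (log2 fold change -0.56, adjusted p = 0.0439) and Nyx (log2 fold change -0.58, adjusted p = 0.0792) fell, and Trpm1, the channel of ON bipolar cells, rose (log2 fold change 0.56, adjusted p = 0.0418). Tacr3 alone of the 5 passed in all 6 fits that left out a KO retina. Of 17 amacrine genes 3 fell, Vip (log2 fold change -0.62, adjusted p = 0.0344), Slc17a8 (log2 fold change -0.79, adjusted p = 0.0453) and Calb2 (log2 fold change -0.54, adjusted p = 0.0784), and 1 rose, the neuropeptide Npy (log2 fold change 0.80, adjusted p = 0.0213). Without GSD308 bipolar genes had 1 fall and amacrine genes had none; Calb2 passed in none of the 6 fits, while Npy passed in all. Horizontal cell genes gave no call, 0 of 5. Of 30 synapse genes 8 fell and none rose, among them the release factor Cplx1 (log2 fold change -0.72, adjusted p = 0.0313), the receptor subunits Gabrb2 (log2 fold change -0.68, adjusted p = 0.021) and Gria3 (log2 fold change -0.39, adjusted p = 0.033), and Snap25 (log2 fold change -0.43, adjusted p = 0.0628). Gabrb2 alone of these passed in all 6 fits, Gria3 in 5, Cplx1 in 4, and Snap25 in 1. The synapse list had 1 fall without GSD301, 2 without GSD308 and 3 without GSD302 or GSD304.

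The photoreceptor lists had counts near the background of 4.38% of genes that rose and 3.44% that fell. Of 21 rod genes 1 fell, the cyclase activator Guca1a (log2 fold change -0.65, adjusted p = 0.0535), and of 12 cone genes Cngb3 fell (log2 fold change -0.45, adjusted p = 0.0995) and Gnb3 rose (log2 fold change 0.42, adjusted p = 0.075). The median log2 fold change was -0.09 for rods and -0.01 for cones. The summed level of the rod list was 75340 to 82510 CPM in KO-RA and 66580 to 71880 CPM in KO-O2, without overlap. None of the 3 genes passed without GSD302, GSD304 or GSD308. Müller glia genes of the resting state were lower where they passed, 4 of 15: the water channel Aqp4 (51.2, 48.2 and 47 CPM in KO-RA and 33.8, 32 and 35.7 CPM in KO-O2, log2 fold change -0.53, adjusted p = 0.03), the potassium channel Kcnj10 (log2 fold change -0.54, adjusted p = 0.0778), Abca8a (log2 fold change -0.73, adjusted p = 0.0816) and the retinoid carrier Rlbp1 (log2 fold change -0.69, adjusted p = 0.0639). Rlbp1 was highest in GSD304, at 489, 435 and 648 CPM in KO-RA and 353, 262 and 359.6 CPM in KO-O2, and without that retina 1 of the 4 passed, Aqp4 (adjusted p = 0.0728). Without GSD301 or GSD308 none did. Rdh11, a retinol dehydrogenase of the visual cycle, was at 44.6, 38.7 and 45.2 CPM in KO-RA and 25.8, 22.7 and 25.6 CPM in KO-O2 (log2 fold change -0.80, SE 0.10, adjusted p = 0.00381) and passed in all 6 fits that left out a KO retina.

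Several lists had at most 2 genes that passed. None of 21 antioxidant and NRF2 genes passed. In the erythroid list 2 of 5 genes fell, against 3.44% of all genes, Hba-a2 (log2 fold change -0.87, adjusted p = 0.0654) and Hbb-bt (log2 fold change -1.59, adjusted p = 0.0528), and neither did without any 1 of GSD304, GSD308 and GSD310. The summed erythroid level was 525.2 to 853.1 CPM in KO-RA and 369.8 to 429 CPM in KO-O2. In WT it was 695.9 to 1063 CPM under room air and 982.8 to 1552 CPM after oxygen. The median log2 fold change was -0.72 in KO and 0.41 in WT. In the pigment epithelium list Mitf fell (log2 fold change -0.91, adjusted p = 0.0183), alone of 16. In the cornea list Krt12, a keratin of the corneal surface, was at 0.676, 1.34 and 1.47 CPM in KO-RA and 2.46, 2.77 and 4.14 CPM in KO-O2 (log2 fold change 1.42, SE 0.34, adjusted p = 0.043), and did not pass without GSD301, GSD308 or GSD310. The summed level of the cornea list overlapped, at 4.225 to 13.55 CPM in KO-RA and 4.649 to 12.28 CPM in KO-O2, and its part in these results was not tested. None of 11 skeletal muscle genes passed.

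With the Y-linked level in the model, 2.31% of all genes rose and 1.54% fell. The lists then gave 14 rises for tip cell and neovascular genes, 9 for endothelium, 4 for pericytes, 4 for gliosis, 8 for microglia, 5 for complement, 4 for interferon, 10 for matrix, 4 for HIF targets and 4 for immediate early genes. Rises numbered 4 for apoptosis, necroptosis and p53, 4 for TGF-beta and BMP, 3 for the VEGF system, 2 each for the endothelin, inflammasome, norrin and activated microglia lists, and 1 each for vascular guidance, stress, amacrine and clock genes. TNF and NF-kB, cell cycle and cornea genes gave no rise. Ganglion cell genes gave 4 falls, synapse and bipolar genes 2 each, and amacrine, Müller glia, visual cycle, vascular guidance, pigment epithelium, stress, p53, TNF, activated microglia and cell cycle genes 1 each. Rod, cone and erythroid genes gave no call. Apln, Adm, Esm1, Vegfa, Epo, Ndufa4l2, C1qa, Cd68, Fn1, Nefh and P2rx2 kept an adjusted p under 0.1 in that fit. Gfap (0.104), Stat3 (0.163), Col8a1 (0.266), Sema3c (0.117) and Nefl (0.103) did not, with the adjusted p in brackets. Among genes that no longer passed, log2 fold changes moved both ways. Bcl3 went from 2.42 to 2.58 and C4b from 2.32 to 2.55, while Casp8 went from 1.11 to 0.82 and Abca8a from -0.73 to -0.43.

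Cold-inducible Rbm3 gave the only interaction of genotype and oxygen that passed by edgeR in the full set. Rbm3, an RNA-binding protein that cells make more of in mild cold, was at 108, 119.5 and 116 CPM in KO-RA and 261, 248 and 238 CPM in KO-O2 (log2 fold change 1.12, SE 0.07, adjusted p = 0.000121). It was at 116, 108 and 113 CPM in WT-RA and 122, 128 and 131 CPM in WT-O2 retinas (log2 fold change 0.18, SE 0.07, adjusted p = 0.239). Only the KO-O2 retinas stood apart, at about 2-fold the level of the other 9 retinas. By edgeR the effect of oxygen differed between genotypes (interaction 0.95, SE 0.10, adjusted p = 0.0252), the 1 gene of 19173 (0.00522%) to pass. In the same list of heat shock and stress genes the related cold-inducible Cirbp rose (log2 fold change 0.51, adjusted p = 0.0337), while the chaperones Hsph1 (log2 fold change -0.50, adjusted p = 0.0174) and Hspa5 (log2 fold change -0.45, adjusted p = 0.0671) fell. Cirbp and Hspa5 did not pass without GSD301, GSD304 or GSD308. The next 4 genes by p did not pass after adjustment by edgeR in the full set (adjusted p = 0.123 for each). They were mt-Nd3, uncertain as above (interaction 3.94, SE 0.54), and Rpusd1 (interaction 1.08, SE 0.16). The others were Smpd2, a sphingomyelinase (interaction 0.90, SE 0.13), and Tspyl2 (interaction 0.92, SE 0.15). All 4 passed with DESeq2 (adjusted p of 6.28e-06 or lower) and by edgeR without GSD306 (adjusted p 0.0296 to 0.045). By edgeR mt-Nd3 also passed without GSD301, and mt-Nd3, Smpd2 and Tspyl2 without GSD302. None of the 4 passed in the other fits that left out 1 retina. The KO retinas had 65.9, 81.4 and 74 CPM of Smpd2 under room air and 114, 134 and 124 CPM after oxygen, and the WT retinas 93.9, 101 and 88.8 CPM in WT-RA and 87.8, 84 and 83.2 CPM in WT-O2. Without an adjustment 2035 genes had an interaction p under 0.05 by edgeR. DESeq2 gave 542 genes at an adjusted p under 0.1, so the 2 tools differ widely on this comparison. By edgeR without GSD306, 340 genes passed. The interaction of Rbm3 did not pass without GSD304 (adjusted p = 0.153), without GSD308 (0.118), without the WT-RA mouse GSD383 (0.126) or without any 1 WT-O2 mouse (0.133 to 0.163), though its size stayed at 0.91 to 0.98 in every fit that left out 1 retina.

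**Figure D3:**
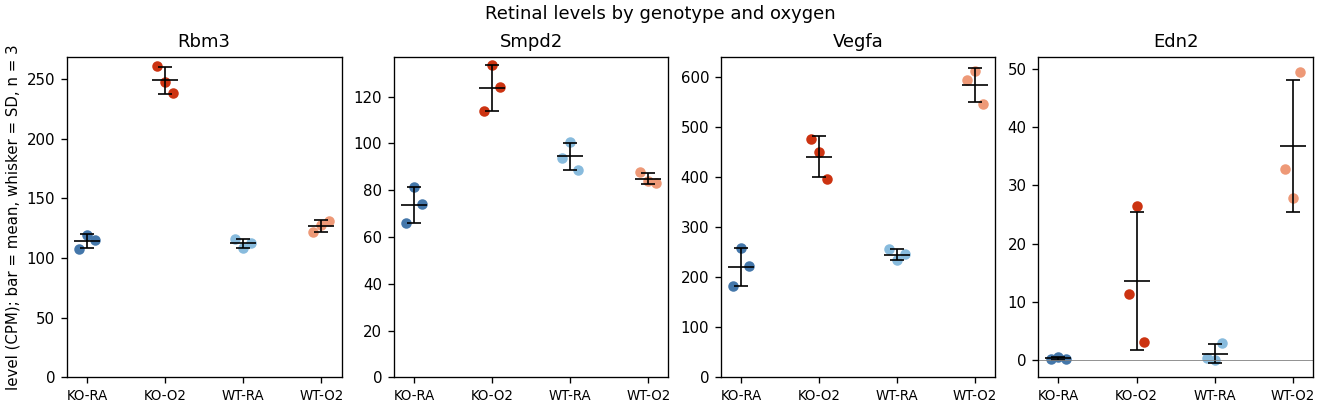
Level in CPM of Rbm3, Smpd2, Vegfa and Edn2 in the 4 retinal groups, 1 point per retina (n = 3), with the mean (bar) and SD (whisker). Rbm3 is raised in the 3 KO-O2 retinas alone (238 to 261 CPM), whereas Vegfa is higher after oxygen in both genotypes.

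The WT retinas share no animal with the KO retinas, and their oxygen response was set beside that of the KO for the genes called in all fits. Between WT-O2 and WT-RA 391 genes were called (2.04%). Leaving predicted gene models aside, 88 such genes were higher in KO-O2, and 86 of them also had a positive log2 fold change in WT, where 50.04% of all genes did. Their median log2 fold change was 1.62 in KO and 1.59 in WT, and 68 rose in WT too (3.11% of all genes). Of the 17 lower genes 15 had a negative log2 fold change in WT and 9 fell there (2.05% of all genes), with medians of -1.40 in KO and -0.87 in WT. In edgeR's interaction test 21 of 88 higher and 6 of 17 lower genes had an unadjusted p under 0.05 (10.6% of all genes). Nothing is read from these counts, since the same KO values chose the genes. Rbm3 alone passed after adjustment by edgeR in the full set. With DESeq2 542 genes passed among all genes, mt-Nd3 and Rbm3 among them. Both room air groups held lens-bearing retinas, and in both genotypes all 3 room air retinas but 1 of 3 oxygen retinas had Y-linked transcripts; the part of these shared differences in the values was not tested. Adm rose in WT (log2 fold change 3.72, SE 0.25, adjusted p = 0.000194), as did Apln (log2 fold change 3.44, SE 0.28, adjusted p = 0.000729), and P2rx2 fell (log2 fold change -2.20, SE 0.21, adjusted p = 0.00104). Epo was at 1.32, 0.686 and 1.28 CPM in WT-RA and 3.5, 3.02 and 3.33 CPM in WT-O2 (log2 fold change 1.58, SE 0.39, adjusted p = 0.0577). Egr1 was at 22.8, 30.6 and 34.1 CPM in WT-RA and 28.4, 50.6 and 22.2 CPM in WT-O2 (log2 fold change 0.21, SE 0.44, adjusted p = 0.867), and Hist1h1e at 3.84, 4.19 and 4.07 CPM in WT-RA and 4.23, 4.99 and 3.85 CPM in WT-O2 (log2 fold change 0.11, SE 0.22, adjusted p = 0.858). For these last 2 genes the WT groups overlapped, but the difference between genotypes did not pass edgeR's interaction test in the full set (adjusted p under 0.1).

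**Figure D4:**
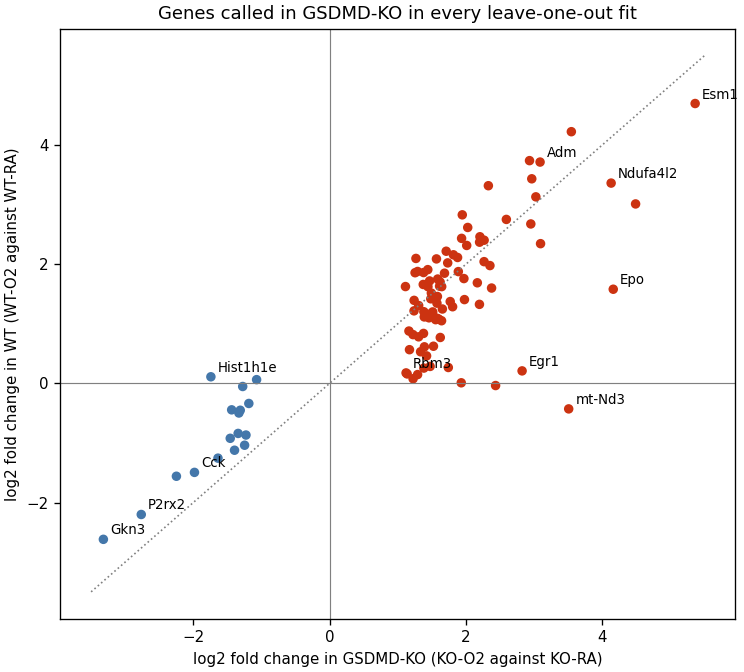
Log2 fold change with oxygen in WT (vertical) against GSDMD-KO retina (horizontal) for the 105 genes with a symbol other than a predicted model that were called in KO in the full set and in all 6 fits without 1 KO retina. The dotted line marks equal change; labelled genes are examples, such as Rbm3 at 1.12 in KO and 0.18 in WT, and genes without a label also lie near 0 in WT.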

How the data were processed

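RNA from frozen whole retinas was sequenced as read pairs, and the authors quantified transcripts with kallisto and summed them to genes with tximport. The deposited values were estimated counts per gene, not normalized; the labels name mm10 and the methods a later mouse build. The lung table was not used here. Estimated counts were rounded, and 19173 genes kept by filterByExpr were tested with edgeR 4.0.16 (TMM, robust quasi-likelihood) in R 4.3.3, with a term for each of 4 groups over all 12 retinas. SE is the log2 fold change divided by the square root of F. The scripts were tested on simulated data. Members and lists were chosen with earlier results of these data known, and lists get no test. Named were the 12 largest rises and falls (mean of at least 1 CPM, no overlap, called also without GSD304, no lens genes, predicted models counted only). Named too were per list the 5 members with the lowest p and any called, 7 genes the study names for the retina, and the 5 lowest interaction p. Sag, Cryaa, Crygd and Lim2 were shown outside this rule as markers of retina and lens. Other genes are marked as chosen after their values were seen. Alternatives were RLE scaling, no filter, DESeq2 1.42.0, lens genes left out or as a covariate, only the retinas compared, other fold thresholds and each retina left out. Added after seeing the data were a Y-linked covariate and the 3 lens-bearing retinas left out. Whether the 3 animals of a group shared a litter is not given in the sources used here. Some members of the lists are counted but not reported by name here.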

Additional observations from a re-analysis of the deposited data

Results flagged for a closer look

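Rbm3 stood out because its difference between oxygen and room air was not the same in the 2 genotypes. The difference between the genotypes' log2 fold changes was 0.95 (SE 0.10, adjusted p = 0.0252, edgeR interaction term), with all 3 KO-O2 retinas above all other 9 retinas. Rbm3 lies on chromosome X at 8138975 to 8145880 of GRCm38. Beside it stand the Y-linked genes, which mark males: they were at 133.7 to 159.9 CPM in the KO-RA retinas and present in 1 of 3 retinas in each oxygen group. The KO-O2 retina with Y-linked transcripts, GSD308, had 248 CPM of Rbm3, between the values of the other KO-O2 retinas. With the Y-linked level in the model the interaction was 0.94 (adjusted p = 0.087), and with the lens level in the model it was 0.97 (adjusted p = 0.153). Without the 3 lens-bearing retinas it was 1.00 (adjusted p = 0.248). Only 1 KO-O2 retina had Y-linked transcripts, and the part of sex and of lens tissue in the level of Rbm3 was not tested.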

How the results depend on the processing

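The 420 genes called between KO-O2 and KO-RA stayed within 1.5 times that count with RLE scaling (423), no filter (324), lens genes left out (421), a lens covariate (378), a Y-linked covariate (339), the 6 KO retinas alone (329) and without the 3 lens-bearing retinas (313). DESeq2 called 655, a fold threshold of 1.5 gave 879 and none gave 1500. Leaving out 1 retina gave 151 to 439. Between WT-O2 and WT-RA 391 genes were called (340 higher, 51 lower), 638 with DESeq2, 190 with the lens covariate, 707 at 1.5-fold, 990 with no fold threshold and 196 to 504 with 1 retina left out. Interactions numbered 1, 542 with DESeq2, 0 with the lens covariate and 0 without the 3 lens-bearing retinas (2031 and 2575 genes had an unadjusted p under 0.05 in those edgeR fits), and 0 to 340 with 1 retina left out, 340 without GSD306. The cause was not tested. None of the 168 named genes followed through the alternatives changed direction in any of them. Sag, the lens genes and the genes marked as chosen after their values were seen were not among these. For the crystallins the median log2 fold change was -6.47, and 1.98 without GSD304. Of 164 named genes that passed, 73 did so in all 6 fits without 1 KO retina, and 76 were lost without GSD301, 57 without GSD304 and 89 without GSD308. The Y-linked covariate and the fit without the 3 lens-bearing retinas lost 60 each, the 6 KO retinas alone 35, the lens covariate 24, no filter 21 and DESeq2 1. No paired analysis was possible because the animals carry identity numbers and no replicate number shared between groups. With 3 retinas a group, and genes under 1 CPM resting on few counts, a p that missed the threshold does not show equal levels.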
